A study of Mus musculus with 12 samples.

Results

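The 38 genes described here encode the contractile apparatus, the calcium release machinery and the energy metabolism of skeletal muscle fibres. They were taken from the 18193 genes with a probe set of a single symbol on the array, as named lists of fast fibre (14 genes), slow fibre (6), shared sarcomere (9), calcium handling (4) and energy metabolism genes (5). The lists name genes by role and not by a cut on measured values, but they were chosen with earlier results of these data known. All 38 were measured. Each gene was read from its brightest probe set over the 12 samples. Expression was measured in whole tumors grown from LLC cells, the Lewis lung carcinoma line of mouse origin, which had been placed subcutaneously in the right flank; the hosts were female C57BL/6 mice, 6 to 8 weeks old. Treatment was allotted at a tumor volume of 60 to 80 mm3 and tumors were collected on day 19. The 1D11_radiation group received 1D11, an antibody that neutralizes TGF-beta, with 5 fractions of 6 Gy. The radiation group received 13C4, the isotype control antibody, with the same fractions. The 1D11 group received 1D11 alone, and the control group received 13C4 alone. Each group held 3 tumors. The sample descriptions give 2 Gy in place of 6 Gy. The labels do not state that each array came from a separate mouse, so p-values measure the spread between these samples. The labels give the tumor as the sampled tissue and name no skeletal muscle.

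A muscle fibre shortens when myosin motors of its thick filaments pull on actin of the thin filaments, and troponin on the thin filament opens the binding sites once calcium is released. Fast fibres and slow fibres use different genes for many of the same parts: Myh4, Myh1 and Myh2 encode fast myosin heavy chains and Myh7 the slow one, and each troponin subunit has a fast and a slow form. Fast fibres rely more on glycolysis and on rapid calcium uptake, while slow fibres are oxidative. In the mouse a thin sheet of striated muscle, the panniculus carnosus, lies in the skin, and the muscles of the flank and body wall lie beneath it. In these whole tumors, fewer fibres and less RNA per fibre cannot be told apart.

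Muscle genes were present at very unequal levels in the 12 tumors. Of the 38 genes, 32 had their highest and second highest values in radiation replicate 3 and control replicate 1. Radiation replicate 3 was the highest tumor for 27 genes, control replicate 1 for 10, and radiation replicate 1 for Tpm2 alone. The lowest tumor was 1D11_radiation replicate 3 for 17 genes and control replicate 3 for 11. The SD over the 12 tumors had a median of 0.94 log2 units among the 38 genes, against 0.14 among the 12735 genes tested, and 33 of the 35 tested members lay in the top 5 percent of that SD. The median ratio of the highest to the lowest tumor was 8.38 over the 38 genes.

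**Figure D1:**
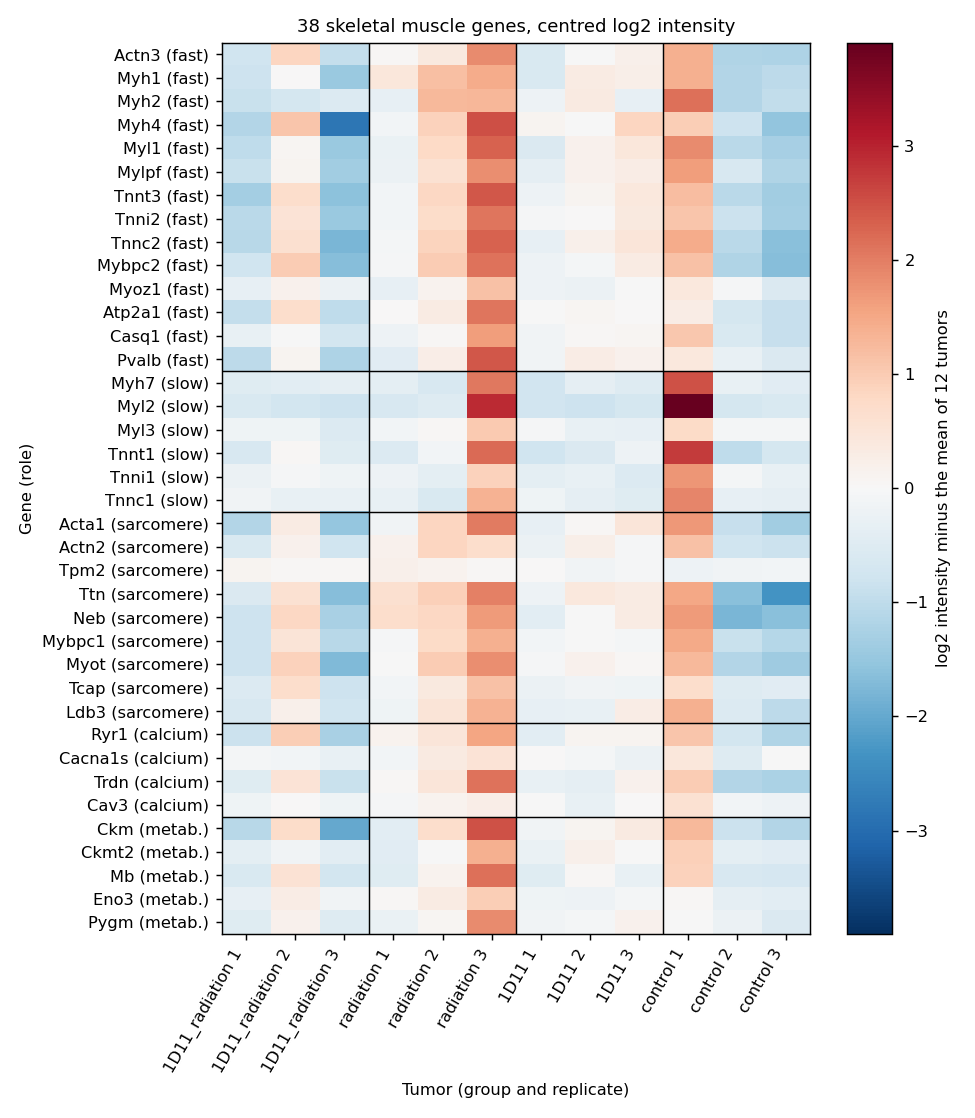
Heat map of the 38 muscle genes (rows, grouped by role) in the 12 tumors (columns, in the order 1D11_radiation, radiation, 1D11 and control, 3 each); colour gives the log2 intensity minus the gene's mean over the 12 tumors. Radiation replicate 3 and control replicate 1 stand out in nearly every row. The slow genes are near their lowest level in the other 10 tumors while most fast genes still vary among them.

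Slow fibre genes were close to an on or off pattern. Myl2, the regulatory light chain of slow myosin, read 7.89 in radiation replicate 3 and 8.89 in control replicate 1 on the log2 scale, and 4.17 to 4.50 in the other 10 tumors. Those 10 readings lay below 5.37, the level under which genes were not tested, so no ratio is given. Myh7, the slow myosin heavy chain, read 5.85, 5.92 and 5.99 in 1D11_radiation, 5.95, 5.72 and 8.41 in radiation, 5.59, 5.99 and 5.82 in 1D11, and 8.83, 6.06 and 5.89 in control tumors. Its values overlapped among all groups apart from those same tumors. Tnnt1, the slow troponin T that anchors troponin to tropomyosin, read 6.03, 6.71 and 6.20 in 1D11_radiation, 6.12, 6.54 and 8.87 in radiation, 5.88, 6.11 and 6.45 in 1D11, and 9.41, 5.67 and 5.98 in control tumors. Tnnc1, the slow calcium-binding troponin C, read 8.20 in radiation replicate 3 and 8.73 in control replicate 1, against 6.24 to 6.68 elsewhere. The corresponding values were 6.89, 7.71 and 5.46 to 5.94 for Tnni1, the slow inhibitory troponin, and 7.17, 6.90 and 5.62 to 6.19 for Myl3, an essential light chain of slow and ventricular myosin. All 6 slow genes thus had these as their highest pair of tumors. Control replicate 1 was above radiation replicate 3 in 5 of them, by 1.34-fold for Myh7 up to 2.00-fold for Myl2, and Myl3 was the exception on the probe set used. Both other probe sets of Myl3 were highest in control replicate 1, as the other slow genes were.

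Most fast fibre genes varied over the whole set of tumors. Myoz1 and Casq1 did so less, spanning 0.73 and 0.97 log2 units without radiation replicate 3 and control replicate 1. The slow gene Tnnt1 spanned 1.04 there. Myh4, the heavy chain of the fastest mouse fibres, read 8.11, 10.33 and 6.43 in 1D11_radiation, 9.13, 10.15 and 11.78 in radiation, 9.35, 9.23 and 10.09 in 1D11, and 10.21, 8.43 and 7.71 in control tumors. The highest tumor exceeded the lowest by 40.6-fold, and 14.9-fold remained over the 10 tumors without radiation replicate 3 and control replicate 1. Myh1, the heavy chain of intermediate fast fibres, read 9.14, 9.97 and 8.51 in 1D11_radiation, 10.39, 11.13 and 11.40 in radiation, 9.35, 10.28 and 10.17 in 1D11, and 11.36, 8.83 and 8.94 in control tumors. All 3 radiation tumors lay above all 3 1D11_radiation and all 3 1D11 tumors for Myh1, while control replicate 1 was level with radiation replicate 3. Of the 14 fast genes, 13 were highest in radiation replicate 3 and 10 were lowest in 1D11_radiation replicate 3.

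Myh2, the heavy chain of the most oxidative fast fibres, was the exception. It read 5.85, 6.03 and 6.19 in 1D11_radiation, 6.38, 7.98 and 8.00 in radiation, 6.51, 7.06 and 6.40 in 1D11, and 8.85, 5.58 and 5.75 in control tumors, so control replicate 1 was 1.80-fold above radiation replicate 3. Pvalb, the calcium buffer parvalbumin of fast fibres, leaned the other way, with 9.33 in radiation replicate 3 and 7.34 in control replicate 1, a 3.99-fold ratio, and 5.71 to 7.21 in the other 10 tumors. Atp2a1, the calcium pump of fast fibres, was 3.43-fold higher in radiation replicate 3 than in control replicate 1. On these lists, the tumors richest in muscle signal therefore did not carry it in the same proportions. Of the fast genes, 13 of 14 were higher in radiation replicate 3. On the probe sets used, 5 of 6 slow genes were higher in control replicate 1. The contrast depends on the lists. On the probe sets used, Mb and Ckmt2, listed with metabolism, were 2.37-fold and 1.39-fold higher in radiation replicate 3. The other probe set of Mb was highest in control replicate 1 and spanned only 0.52 log2 units. Ckmt2 read 5.02 in control replicate 1, under the level of 5.37 below which genes were not tested. Mybpc1, listed as shared, was 1.07-fold higher in control replicate 1.

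Promoter sequences are shown for 3 genes to set a fast, a shared and a slow member beside each other: Myh4, the fast gene with the widest range; Acta1, skeletal actin of every fibre; and Myl3, the slow gene whose window held a CArG match. Each is a window of 300 bases, from 250 before to 50 after the gene's start, taken from RefSeq on GRCm38.p6 and written 5′ to 3′ on the gene's strand, and capitals mark motif matches. Myh4 lies at chr11:67237562-67237861 on the plus strand, Acta1 at chr8:123894726-123895025 on the minus strand and Myl3 at chr9:110763428-110763727 on the plus strand.
Myh4: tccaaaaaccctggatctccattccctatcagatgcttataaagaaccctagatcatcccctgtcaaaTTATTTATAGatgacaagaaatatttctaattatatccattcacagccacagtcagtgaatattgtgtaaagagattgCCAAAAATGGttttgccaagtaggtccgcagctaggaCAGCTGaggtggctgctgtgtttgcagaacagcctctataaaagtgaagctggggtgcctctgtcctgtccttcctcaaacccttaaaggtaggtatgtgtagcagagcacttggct
Acta1: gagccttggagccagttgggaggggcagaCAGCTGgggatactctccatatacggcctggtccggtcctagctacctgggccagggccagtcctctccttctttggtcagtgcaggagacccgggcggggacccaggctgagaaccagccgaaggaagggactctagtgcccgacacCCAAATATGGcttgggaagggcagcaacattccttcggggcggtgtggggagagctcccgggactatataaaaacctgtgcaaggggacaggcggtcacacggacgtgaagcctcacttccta
Myl3: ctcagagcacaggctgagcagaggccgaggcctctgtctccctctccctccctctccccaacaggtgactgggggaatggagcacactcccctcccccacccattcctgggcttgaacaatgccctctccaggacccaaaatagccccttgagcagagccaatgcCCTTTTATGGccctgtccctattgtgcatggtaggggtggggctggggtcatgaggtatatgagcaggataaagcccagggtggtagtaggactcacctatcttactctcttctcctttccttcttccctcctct
The motifs searched, on both strands, were the E-box CAGCTG bound by myogenic basic helix-loop-helix factors, the MEF2 motif and the CArG box bound by serum response factor. In the Myh4 window the capitals are, from the left, a MEF2 match beginning 182 bases before the start, a CArG match at 104 and an E-box at 67. In Acta1 they are an E-box at 221 and a CArG match at 73, and in Myl3 a CArG match at 85. No matches in these windows overlapped one another.

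Promoter windows were found for 30 of the 38 genes, and Actn3, Myot, Myoz1, Neb, Tcap, Tnni2, Tnnt3 and Trdn had none in the table. The E-box was in 17 of the 30 (56.7%), against 18.3% of 27025 mouse genes. MEF2 matches were in 4 (13.3%, against 3.70%) and CArG matches in 4 (13.3%, against 1.81%). At least 1 of these motifs was in 22 of the 30 (73.3%, against 22.7%), and Myh4 alone held all 3 kinds. By role, the E-box was in 5 of 10 fast, 2 of 6 slow and 5 of 5 metabolism genes. MEF2 matches were in 3 of 10 fast and 0 of 6 slow genes. A match describes letters in the window and is no evidence of binding.

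Averaged over genes, most tumors differed in their fast fibre genes and hardly in their slow ones. A score is the mean over a list of log2 values centred on each gene's mean over the 12 tumors. The fast score was -0.87, 0.38 and -1.30 in 1D11_radiation, -0.13, 0.66 and 1.96 in radiation, -0.25, 0.10 and 0.25 in 1D11, and 1.17, -0.83 and -1.15 in control tumors. The slow score was -0.38, -0.26 and -0.43 in 1D11_radiation, -0.36, -0.36 and 1.74 in radiation, -0.48, -0.44 and -0.46 in 1D11, and 2.25, -0.41 and -0.41 in control tumors. Over the 10 tumors without radiation replicate 3 and control replicate 1, the slow score spanned 0.21 and the fast score 1.96 log2 units. With Mb, Ckmt2 and Mybpc1 added to the slow list, the slow score was 1.71 in radiation replicate 3 and 1.87 in control replicate 1, so these tumors stood closer together. This longer list spanned 0.46 over the other 10 tumors. Among those 10 tumors the median SD was 0.74 for fast genes and 0.14 for slow genes, against 0.13 over all genes tested.

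**Figure D2:**
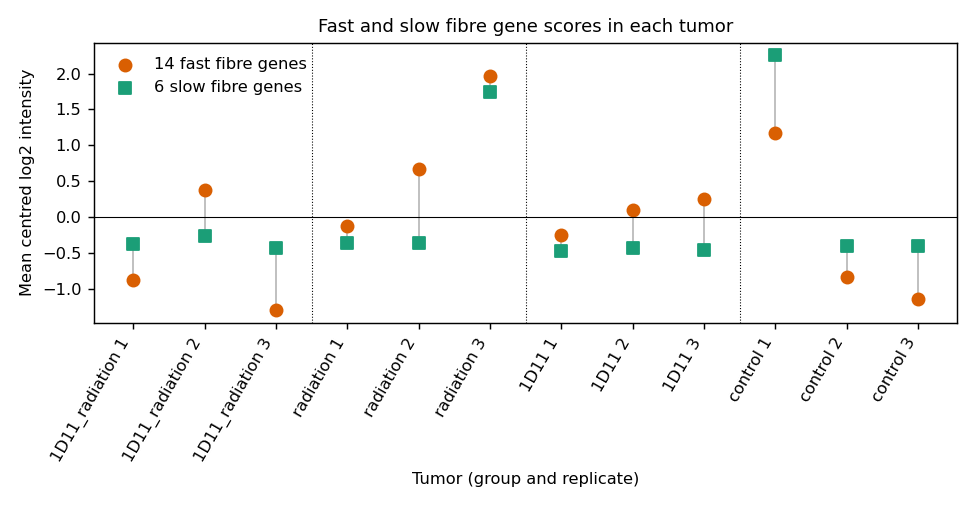
Fast fibre score (circles, 14 genes) and slow fibre score (squares, 6 genes) of each tumor, as mean centred log2 intensity, with tumors in the order 1D11_radiation, radiation, 1D11 and control along the horizontal axis. The slow score stands at 1.74 in radiation replicate 3 and 2.25 in control replicate 1 and between -0.48 and -0.26 in the other 10 tumors, over which the fast score spreads from -1.30 to 0.66.

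Group means of the fast score were -0.60 ± 0.87 in 1D11_radiation, 0.83 ± 1.05 in radiation, 0.03 ± 0.25 in 1D11 and -0.27 ± 1.26 in control tumors (SD, n = 3 each). The corresponding means of the slow score were -0.36 ± 0.09, 0.34 ± 1.22, -0.46 ± 0.02 and 0.48 ± 1.54. The large SD of the radiation and control groups came with the tumor in each that held the slow signal. The fast score minus the slow score was -0.49, 0.64 and -0.87 in 1D11_radiation, 0.23, 1.03 and 0.22 in radiation, 0.23, 0.54 and 0.71 in 1D11, and -1.08, -0.42 and -0.74 in control tumors. All 3 radiation and all 3 1D11 tumors were above 0 and all 3 control tumors below it, while 1D11_radiation tumors lay on both sides. Since the slow score barely moved in 10 tumors, control replicates 2 and 3 included, this difference mostly restates the fast score there, and its sign depends on the means used for centring. Within control replicate 1 it was low because the slow genes stood higher above their mean than the fast genes did.

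Correlation between single genes showed the same structure, and is given as a description over tumors that share a series and an array type. Over the 12 tumors the median r was 0.91 among 91 pairs of fast genes, 0.96 among 15 pairs of slow genes and 0.70 among 84 fast and slow pairs. Over the 10 tumors without radiation replicate 3 and control replicate 1 these medians were 0.88, -0.13 and 0.00. The common movement of the slow genes was thus not seen without those tumors, and that of the fast genes was. Those tumors held the highest values of all 6 slow genes, so leaving them out can by itself lower the slow correlations. In the 10 tumors Myl2 read under the filter level and the other slow genes 5.46 to 6.71. The median SD of the slow genes there was 0.14, against 0.13 over all genes tested, which limits what their correlations can show.

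For 8 parts of the sarcomere a fast gene was paired with a related gene of slow fibres or of all fibres. Each gene was read against its own mean, since levels of different probe sets are not comparable. The pairs were Tnnc2 with Tnnc1, Tnni2 with Tnni1, Tnnt3 with Tnnt1, Mylpf with Myl2, Myl1 with Myl3, Myh4 with Myh7, Mybpc2 with Mybpc1 and Actn3 with Actn2. The fast gene stood above its partner in 1, 8 and 0 of 8 pairs in the 1D11_radiation tumors, in 5, 7 and 7 pairs in the radiation tumors, in 4, 6 and 8 pairs in the 1D11 tumors, and in 2, 1 and 0 pairs in the control tumors. The median difference ran from -1.03 in 1D11_radiation replicate 3 to 1.01 in radiation replicate 2. These signs depend on the means, which radiation replicate 3 and control replicate 1 pull up for the slow partners. In control replicates 2 and 3 the slow partners read as in most other tumors, with a slow score of -0.41 in each, so the counts of 1 and 0 there restate low fast genes.

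**Figure D3:**
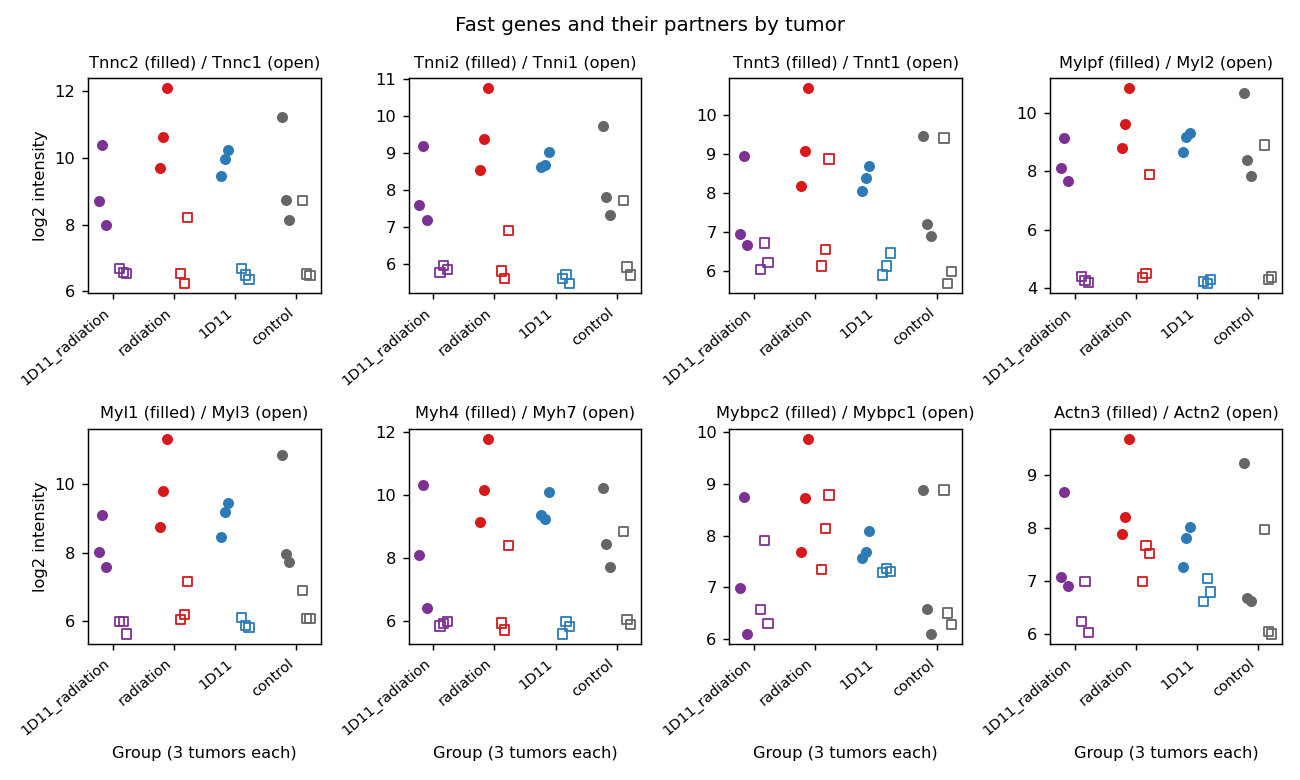
Log2 intensity of 8 fast genes (filled circles) and their partners (open squares) in the 3 tumors of each group, 1 panel per pair, with groups in the order 1D11_radiation, radiation, 1D11 and control; the heights of circles and squares come from different probe sets and are not comparable. The slow partners, such as Myl2 and Myh7, are high in radiation replicate 3 and control replicate 1 only, while the circles spread over all groups.

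Structural genes used by every fibre varied over the whole set of tumors, as most fast genes did, with the exception of Tpm2. Acta1, skeletal actin, read 9.96, 11.43 and 9.60 in 1D11_radiation, 10.97, 11.94 and 13.12 in radiation, 10.78, 11.16 and 11.57 in 1D11, and 12.79, 10.22 and 9.77 in control tumors. Ttn, the giant spring titin, read 7.88, 9.03 and 6.77 in 1D11_radiation, 9.08, 9.38 and 10.42 in radiation, 8.25, 8.87 and 8.76 in 1D11, and 9.96, 6.80 and 6.10 in control tumors. All 3 radiation tumors were above all 3 1D11_radiation and 1D11 tumors for Ttn, and control replicate 1 was second highest. Neb, the thin filament ruler nebulin, read 5.36, 6.96 and 4.90 in 1D11_radiation, 6.87, 6.99 and 7.83 in radiation, 5.75, 6.15 and 6.47 in 1D11, and 7.82, 4.39 and 4.53 in control tumors. Actn2, the alpha-actinin of all Z-discs, Mybpc1, a myosin binding protein of slow and fast fibres, and the Z-disc genes Myot, Tcap and Ldb3 spanned 1.97 to 3.51 log2 units over the 12 tumors. Tpm2, a tropomyosin also made by smooth muscle, was nearly flat. It read 11.80, 11.74 and 11.74 in 1D11_radiation, 11.90, 11.83 and 11.75 in radiation, 11.71, 11.57 and 11.65 in 1D11, and 11.50, 11.57 and 11.59 in control tumors, a range of 0.40 log2 units with control replicate 1 lowest.

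Of the calcium handling genes, Ryr1, the calcium release channel, spanned 2.81 log2 units, and Trdn, which tethers calsequestrin to it, spanned 3.36. Cav3, muscle caveolin, spanned 0.86, and Cacna1s, the voltage sensor that opens Ryr1, read 4.40 to 5.44 and passed the filter level of 5.37 in radiation replicate 3 only. All 4 had radiation replicate 3 and control replicate 1 as their highest pair. The store protein Casq1, listed with the fast genes, was 7.76 in radiation replicate 3 and 7.18 in control replicate 1, and 5.23 to 6.19 elsewhere.

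On the probe sets used, all 5 metabolism genes were highest in radiation replicate 3. Ckm, the creatine kinase that regenerates ATP beside the myofibrils, read 7.49, 9.28 and 6.57 in 1D11_radiation, 8.15, 9.26 and 11.06 in radiation, 8.42, 8.68 and 8.92 in 1D11, and 9.83, 7.72 and 7.42 in control tumors. Its highest tumor was 22.4-fold above its lowest. Radiation replicate 3 exceeded control replicate 1 by 2.35-fold for Ckm, 2.37-fold for Mb, the oxygen store myoglobin, 3.67-fold for Pygm, the glycogen phosphorylase of muscle, and 1.88-fold for Eno3, muscle enolase. Pygm at 5.96 in control replicate 1 was within the range of the other 10 tumors, 5.41 to 6.16, although the slow genes peaked in that tumor. The mitochondrial creatine kinase Ckmt2 was under the filter level in all tumors but radiation replicate 3, where it read 5.50. The metabolism score was -0.57, 0.32 and -0.75 in 1D11_radiation, -0.31, 0.24 and 1.77 in radiation, -0.24, 0.02 and 0.03 in 1D11, and 0.62, -0.48 and -0.65 in control tumors.

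Groups were then compared over all 12735 genes that passed a filter on mean intensity, with limma and a Benjamini-Hochberg adjusted p under 0.05 as the call. The filter removed 3 members, Myl2, Cacna1s and Ckmt2; Myl2 was removed although it reached 8.89 in control replicate 1, because the filter uses the mean over all tumors. The first question was what radiation changes under the control antibody. In radiation against control, 0 of 35 members were called, beside 304 of 12735 genes (2.39%), and 4 members (Tpm2, Eno3, Ttn and Atp2a1) had an unadjusted p under 0.05. Of all 38 members, 34 were higher and 4 lower in radiation tumors, with a median log2 change of 0.81 against -0.00 over all genes tested. The 14 fast genes were all higher (median 1.17), as were 9 of 9 shared sarcomere (0.86), 4 of 4 calcium (0.63) and 5 of 5 metabolism genes (0.73). Of the 6 slow genes, 2 were higher and 4 lower (median -0.24).

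Single values show how wide the error of this contrast was. Ttn averaged 9.63 ± 0.71 in radiation and 7.62 ± 2.06 in control tumors (SD, n = 3 each), a log2 change of 2.00 ± 0.86 (SE; limma adjusted p = 0.240). Myh4 averaged 10.35 ± 1.34 in radiation and 8.78 ± 1.29 in control tumors, a change of 1.57 ± 0.95 (limma adjusted p = 0.409). Ckm had a change of 1.17 ± 0.84 (adjusted p = 0.493) and Acta1 one of 1.08 ± 0.77 (adjusted p = 0.488). Mb was at 0.73 ± 0.63 (limma adjusted p = 0.575). Casq1 and Myoz1 had the smallest changes of the 14 fast genes, at 0.64 ± 0.52 and 0.39 ± 0.33. The other fast genes lay between 0.73 ± 0.73 for Myh2 and 1.57 ± 0.80 for Mybpc2, with adjusted p from 0.265 for Atp2a1 to 0.637 for Myh2. The slow genes gave -0.24 ± 0.78 for Myh7, -0.25 ± 0.58 for Tnnc1, -0.34 ± 0.46 for Tnni1, 0.16 ± 0.90 for Tnnt1 and 0.11 ± 0.29 for Myl3, with adjusted p from 0.742 to 0.945. The shared partners Mybpc1 and Actn2 were at 0.86 ± 0.63 and 0.72 ± 0.45. The smallest adjusted p values belonged to genes with small spread: Tpm2, at 0.27 ± 0.06 (adjusted p = 0.0502), with all 3 radiation tumors above all 3 control tumors, and Eno3, at 0.67 ± 0.22 (adjusted p = 0.137).

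**Figure D4:**
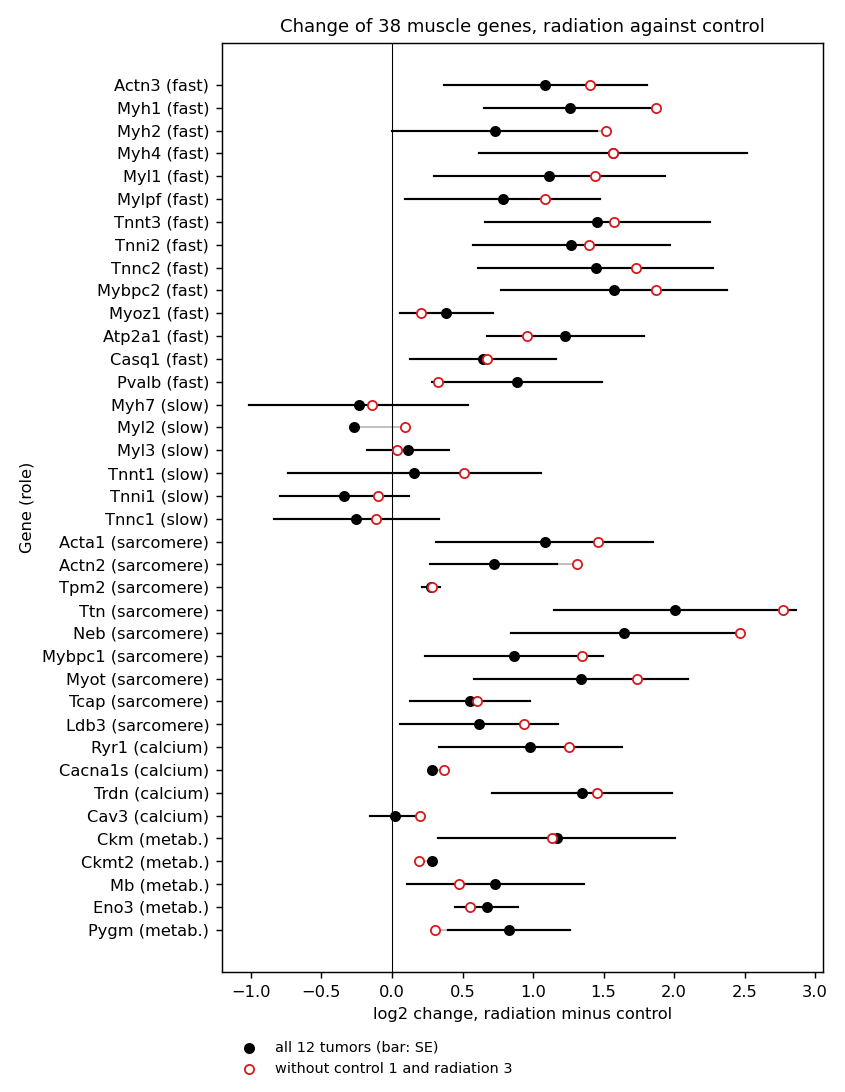
Log2 change in radiation against control tumors for each of the 38 genes. Black points are the fit over 12 tumors with SE bars (none for Myl2, Cacna1s and Ckmt2, which were not tested); open red points leave out radiation replicate 3 and control replicate 1. Fast and shared genes lie to the right of 0. The black points of the 6 slow genes lie near 0, between -0.34 and 0.16, and their red points between -0.14 and 0.51, with Tnnt1 highest.

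The call for members depended on which tumors entered. Leaving out radiation replicate 3 and control replicate 1, together or singly, rests on the muscle signal itself and so gives values rather than independent support. Without both tumors the median change was 1.02, and 3 of 35 members were called, beside 569 of 12735 genes. They were Ttn at 2.78 ± 0.58 (limma adjusted p = 0.0343), Neb at 2.46 ± 0.54 (adjusted p = 0.0382) and Actn2 at 1.31 ± 0.30 (adjusted p = 0.0468). Without control replicate 1 alone 5 members were called, beside 436 of all genes tested, namely Myh1, Myh2, Actn2, Ttn and Neb. Without radiation replicate 3 alone 1 member, Tpm2, was called. Over all genes tested, leaving out any single array called 20 to 436. The exact count without radiation replicate 3 is not given, so this call is not set against a share. The median change was 0.40 without radiation replicate 3 and 1.48 without control replicate 1. The median of the fast genes was 1.42 and that of the slow genes -0.03 when both tumors were left out.

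The second question was what radiation changes under 1D11. In 1D11_radiation against 1D11, 0 of 35 members were called, beside 10 of 12735 genes (0.0785%), and no member had an unadjusted p under 0.05. Of the 38 members, 30 were lower and 8 higher, with a median log2 change of -0.33 against -0.03 over all genes. The median was -0.66 without 1D11_radiation replicate 2 and -0.045 without 1D11_radiation replicate 3. The fast genes were lower in 13 of 14 (median -0.73), and 5 of 6 slow genes were higher (median 0.10). The smallest p values were those of Tpm2, at 0.12 ± 0.06 (limma adjusted p = 0.401), and Pvalb, at -0.82 ± 0.60 (adjusted p = 0.570).

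The difference between these radiation effects was tested as an interaction, the effect under 1D11 minus the effect under 13C4. It called 0 of 35 members and 0 of 12735 genes (0%) with limma, and 2 members and 952 genes had an unadjusted p under 0.05. The members were Myh1, at -1.99 ± 0.87 (limma adjusted p = 0.638), and Ttn, at -2.74 ± 1.21 (adjusted p = 0.655). All 14 fast genes had a negative value (median -1.81), against 1 of 6 slow genes (median of the list 0.33). The median over the 38 members was -1.24, against -0.03 over all genes tested, and -1.99 without control replicate 1 and -0.82 without control replicate 3. Thus the opposite signs of the fast genes under the 2 antibodies did not pass a test of their difference.

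Antibody effects were compared in the same way. In 1D11 against control, 0 of 35 members were called, beside 2 of 12735 genes (0.0157%), and no member had an unadjusted p under 0.05. Of the 38 members, 24 were higher and 14 lower, with a median of 0.14 against 0.04 over all genes, and the 6 slow genes were all lower (median -0.86). Tnni1 had a log2 change of -0.85 ± 0.46 (limma adjusted p = 0.432) and Myh7 one of -1.13 ± 0.78 (adjusted p = 0.538). Without radiation replicate 3 and control replicate 1 the slow median was -0.12 and the overall median 0.80, so the slow difference came with control replicate 1. All 14 fast genes were then higher in 1D11 tumors. Without control replicate 3 the overall median was -0.24.

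In 1D11_radiation against radiation, 0 of 35 members and 0 of 12735 genes (0%) were called by limma, and 5 members and 688 genes had an unadjusted p under 0.05. All 38 members were lower in 1D11_radiation, with a median of -1.13 against 0.00 over all genes. Myh1 averaged 9.21 ± 0.73 in 1D11_radiation and 10.97 ± 0.52 in radiation tumors (SD, n = 3 each), a change of -1.77 ± 0.61 with no overlap between the groups (limma adjusted p = 0.840). Pvalb had a change of -1.45 ± 0.60 (adjusted p = 0.840). Without radiation replicate 3 and control replicate 1 the median was -0.57 and 35 of 38 members were lower.

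In 1D11_radiation against control, 0 of 35 members were called, beside 299 of 12735 genes (2.35%), and Tpm2 alone had an unadjusted p under 0.05, with a change of 0.21 ± 0.06 (limma adjusted p = 0.0987). The next smallest was that of Myl3, at -0.48 ± 0.29 (adjusted p = 0.360). Of the 38 members, 29 were lower and 9 higher (median -0.30). Without radiation replicate 3 and control replicate 1 the direction turned, with 34 higher and a median of 0.35. The comparisons share tumors: control tumors enter 4 of the 6, the interaction included, so their values are not independent.

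Smooth muscle markers, and the score of tendon and fascia genes, set the tumors with most muscle signal apart from each other, and fat markers did not. The smooth muscle score was 1.34 in control replicate 1 and -0.26 to 0.03 in the other tumors, and 9 of 10 smooth muscle genes were highest in control replicate 1. The list includes Des, also listed with striated muscle, which was highest in that tumor at 9.35. Actg2, the gamma actin of visceral smooth muscle, read 8.39 in control replicate 1 against at most 5.54 in the other tumors, Myh11, the smooth muscle myosin heavy chain, 7.11 against at most 5.06, Cnn1, calponin, 6.62 against at most 5.00, and Tagln 9.02 against at most 7.24. The score of tendon and fascia genes was 0.56 in control replicate 1 and -0.22 to 0.19 elsewhere. Only 3 of these 9 genes were highest in control replicate 1 and 1 in radiation replicate 3, and 4 of the 9 passed the filter. In radiation replicate 3 these scores were -0.11 for smooth muscle and 0.02 for tendon and fascia. The adipocyte score was -0.51, 0.05 and -0.49 in 1D11_radiation, -0.21, 0.36 and 0.27 in radiation, 0.38, -0.03 and 0.37 in 1D11, and 0.22, -0.39 and -0.03 in control tumors. It was low in 1D11_radiation replicates 1 and 3, where the fast score was low too. Of 10 adipocyte genes measured, 9 were lower in 1D11_radiation against radiation and 9 in 1D11_radiation against 1D11, with median log2 changes of -0.27 and -0.32; the list holds Car3 and Lpl, which muscle also makes. Keratinocyte genes had scores of 2.10 in 1D11 replicate 3 and 0.78 in 1D11 replicate 1, and -0.18 or less in the others. The stress and RNA quality list was 0.49 in radiation replicate 1 and at most 0.11 in the others, with -0.19 in radiation replicate 3 and -0.15 in control replicate 1. The lowest array weights were 0.359 in radiation replicate 3 and 0.297 in control replicate 1. The part of these tissues and of array quality in the muscle values was not tested.

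**Figure D5:**
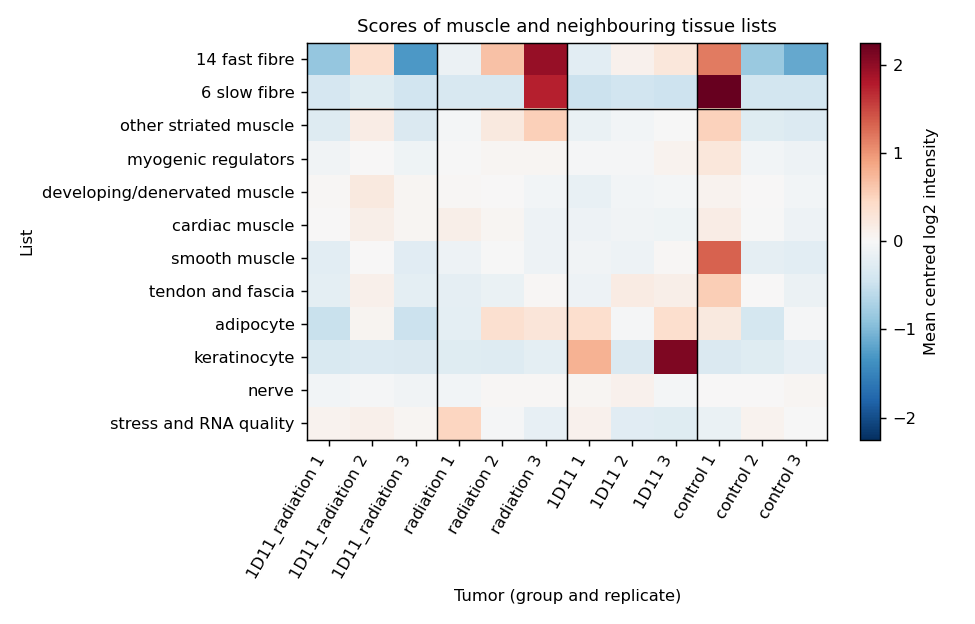
Heat map of list scores (rows, mean centred log2 intensity) for fast and slow fibre genes and for 10 lists of other muscle, neighbouring tissue and RNA quality, in the 12 tumors (columns, in the order 1D11_radiation, radiation, 1D11 and control). The smooth muscle score stands at 1.34 in control replicate 1 and at most 0.03 elsewhere, and the keratinocyte score peaks at 2.10 in 1D11 replicate 3.

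Defining markers of heart and of developing muscle were low. Myh6, the atrial myosin heavy chain, read 3.52 to 3.76 and Nppa, the atrial peptide, 3.78 to 4.01 over the 12 tumors, both under the filter level, and the cardiac score stayed between -0.12 and 0.16. Myh3 and Myh8, the embryonic and perinatal heavy chains, read 4.10 to 4.85 and 3.81 to 4.59, also under that level, while the adult fast chains Myh1, Myh2 and Myh4 were above it in all 12 tumors. Other genes of these lists passed the filter: 5 of 11 in the cardiac list and 6 of 13 in the developing or denervated list. Nppb, the B-type natriuretic peptide, read 6.05 to 7.84 and was highest in radiation replicate 1, and Chrna1, a subunit of the muscle acetylcholine receptor, read 6.58 to 7.79 and was highest in 1D11_radiation replicate 2. In each list 1 gene was highest in radiation replicate 3 and 1 in control replicate 1. Pax7, the satellite cell factor, read 3.83 to 4.32, and Myod1 5.08 to 5.66. Myf6, the myogenic factor of adult fibres, read 7.27 in control replicate 1 and 5.32 to 6.87 in the others. Myog, the differentiation factor myogenin, read 6.36 in control replicate 1 and at most 5.40 in the others, and Six4, a homeobox factor, 11.11 in control replicate 1 and 9.93 to 10.44 in the 10 tumors without it and radiation replicate 3. Eya1, a cofactor of the family Six4 belongs to, followed no muscle tumor, with its highest value of 9.22 in 1D11 replicate 1.

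A further list of 65 striated muscle genes, of which 61 were measured and 47 tested, was highest in radiation replicate 3 for 25 genes and in control replicate 1 for 22. None was called in any comparison, and in radiation against control 47 were higher and 14 lower, with a median log2 change of 0.12. The genes with the largest SD were Trim63, a ubiquitin ligase of muscle atrophy, Klhl41 and Smpx, both sarcomere-associated, and Sln, the peptide sarcolipin that slows the calcium pump. Trim63 read 6.16, 7.79 and 6.18 in 1D11_radiation, 7.30, 7.68 and 8.33 in radiation, 6.81, 6.75 and 7.80 in 1D11, and 8.76, 5.45 and 6.06 in control tumors. Klhl41 was highest at 7.86 in control replicate 1 and Smpx at 7.53 in the same tumor. Sln was highest in 1D11_radiation replicate 2, at 8.52, against 7.75 in radiation replicate 3 and 7.49 in control replicate 1.

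Genes outside the 38 whose pattern over the 12 tumors was most like the members' mean, by mean absolute difference of centred log2 values, were Hspb6 (0.130), Srl (0.137), Synm (0.192), Myf6 (0.199), Pgam2 (0.203), Des (0.212), Tmod4 (0.222), Myom1 (0.227), Ppp1r3c (0.230) and Chchd10 (0.232). The median over 12700 tested non-members was 0.621. Among the members the same measure ran from 0.140 for Ldb3 to 0.743 for Myl2, with a median of 0.355, so the slow light chain was the least typical member. Hspb6, a small heat shock protein of muscle, read 6.45, 6.91 and 5.94 in 1D11_radiation, 7.09, 7.59 and 8.50 in radiation, 6.83, 6.97 and 7.29 in 1D11, and 8.27, 6.30 and 6.26 in control tumors.

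Other probe sets of the same genes gave part of the same picture. There were 28 further probe sets for 13 members, of which 15 exceeded the filter level and 9 of those were highest in the same tumor as the probe set used. For Myl3 the probe set used spanned 1.55 log2 units and gave a change of 0.11 in radiation against control; of its 2 other sets, both highest in control replicate 1, one spanned 2.76 with a change of -0.19 and the other 1.08 with a change of -0.031. For Tpm2 the 3 other probe sets were highest in control replicate 1, radiation replicate 2 and 1D11_radiation replicate 2, so its order of tumors is not shared between probe sets, although its change in radiation against control was positive in each (0.07, 0.30 and 0.16). For Mb the probe set used spanned 2.88 log2 units, with a change of 0.73 in radiation against control. Its other set, above the filter level, spanned 0.52 with a change of -0.089 and was highest in control replicate 1.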

How the data were processed

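Expression was measured in 12 whole tumors, each on a 1-colour Affymetrix array of 45101 probe sets hybridised with biotin-labelled cRNA made from 6 µg of total RNA, per the labels' protocols. Each deposited value is the summarised intensity of a probe set, not log transformed; the software behind it is not given in the sources used here. Array medians lay between 62.3 and 66.1, and only a log2 transformation was applied to the intensity values, so every change is on the log2 scale. No background signal per array is known, and 3 arrays per group limit the precision.

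Of the probe sets, 34945 carried a single gene symbol, and each gene was read from the set with the highest mean log2 value. Genes below the 30th percentile of gene means, a log2 value of 5.37, were not tested. Two-sided tests came from limma 3.58.1 in R 4.3.3, where lmFit estimated a mean for every group from the 12 arrays together and eBayes moderated the variances (8 residual and 3.11 prior degrees of freedom), with Benjamini-Hochberg adjustment over all 12735 genes tested. Errors of changes are standard errors from that model. The fit was tested on simulated data with independent normal noise for each gene. Those data held no shared movement of genes and no outlying tumor, so the test does not cover the pattern of the muscle genes. The replicate numbers were not used as pairs. Over genes, 18 pairs of arrays with the same number correlated at r from -0.31 to 0.27 around their group means, and 3 were over 0.1. Arrays with different numbers were not compared in this way, so the range cannot show whether the numbers mark a pairing. No arrays were copies, as the SD of log2 differences was at least 0.180. Alternatives were quantile normalization, no filter, the mean of a gene's probe sets, a replicate block, array weights and an offset of 16. Further alternatives were leaving out each array or both of control replicate 1 and radiation replicate 3. For the slow score, a longer slow list with Mb, Ckmt2 and Mybpc1 was also used.

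The 38 genes, the lists and the alternatives were chosen with earlier results of these data known. Changes with their errors in radiation against control cover the 8 pairs and Acta1, Ckm, Mb, Atp2a1, Pvalb, Eno3, Myh1 and Myh2. Part of the fast genes are given there as a range only, and Myl2, which was not tested, has no error. In each comparison they are also given for the 2 members with the smallest p. Genes outside the list are the 10 most alike, the 4 most variable of the striated muscle and regulator lists, and markers of other tissues; Neb, Casq1, Myoz1, the members called in an alternative, Nppb and Chrna1 were named after their values were seen. Promoters came from a RefSeq table of GRCm38.p6.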

Additional observations from a re-analysis of the deposited data

How the results depend on the processing

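The fast and slow scores were recomputed under quantile normalization, the mean of probe sets and an offset of 16, and the slow score also with the longer slow list. The other alternatives were not applied to the scores. Each score moved by less than 1 pooled SD within groups, 0.94 for fast and 0.98 for slow. This is a loose limit, since radiation replicate 3 and control replicate 1 widen that SD. Over the other 10 tumors the slow score spanned only 0.21. Members were called in radiation against control under array weights (2, Tpm2 and Ttn, beside 890 genes) and with an offset of 16 (1, Tpm2, beside 357 genes). Without control replicate 1 and radiation replicate 3 together 3 were called, beside 569 genes. When single arrays were left out 0 to 5 were called, with 5 without control replicate 1, beside 436 genes. In the other comparisons no alternative called a member. Counts of all genes called moved more. With array weights they were 890 in radiation against control, 1491 in 1D11_radiation against 1D11, 13 in 1D11 against control, 6 in 1D11_radiation against radiation, 923 in 1D11_radiation against control and 122 in the interaction. Without both tumors they were 569, 419, 59 and 1 in the first 4 of these comparisons and 20 in the interaction. The mean of probe sets gave 193, 35 and 0 in the first 3, no filter gave 4 in 1D11 against control and 178 in 1D11_radiation against control, and quantile normalization gave 0 in 1D11 against control. With the replicate number as a block the counts were 1 in 1D11_radiation against 1D11, 0 in 1D11 against control and 85 in 1D11_radiation against control; the numbers share no stated source, and the block changed no call of a member. Leaving out single arrays gave 20 (without radiation replicate 2) to 436, 1 to 227, 0 to 21, 0 to 1, 17 (without 1D11_radiation replicate 3) to 424 and 0 to 21 genes in the order above.

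The fast minus slow change with array weights was -1.33 in 1D11_radiation against radiation, against -0.73 as reported, and -2.52 in the interaction, against -1.97. In radiation against control the sign of slow genes turned with single arrays: Tnnc1 ran from -0.86 to 0.49, Tnni1 from -0.74 to 0.30, Tnnt1 from -0.69 to 1.35, Myl3 from -0.24 to 0.39 and Myh7 from -1.09 to 0.72, with the lowest without radiation replicate 3 and the highest without control replicate 1. Mb ran from -0.042 without radiation replicate 3 to 1.27, and Myl3 with the mean of probe sets was -0.034. When single arrays were left out, the median member change ran from 0.40 to 1.48 in radiation against control and kept its sign. It also kept its sign in 1D11_radiation against 1D11 (-0.66 to -0.045), 1D11_radiation against radiation (-1.49 to -0.57) and the interaction (-1.99 to -0.82). It turned in 1D11 against control (-0.24 to 0.80) and 1D11_radiation against control (-0.65 to 0.35). The cause of these shifts was not tested. The number of arrays, 3 per group, limits what can be called. In 10 tumors Myl2 lay under the filter level and the other slow genes read 5.46 to 6.71, and the background signal is not known.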
